A study of Homo sapiens with 12 samples.

Results

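Messenger RNAs linked to the response to low oxygen, and the microRNA miR-210, were followed in tumours of a bufotalin group and a control group. The labels call the tissue xenograft and the line Hep3B, which was derived from a human liver carcinoma. Bufotalin is a bufadienolide, a toad venom steroid of the cardiac glycoside class. The members were chosen by name: ADM, ALDOC, P4HA2 and CA12 among the 4988 genes of the deposited mRNA table, and hsa-miR-210-3p and hsa-miR-210-5p among the 1451 features of the small RNA table. All 6 members were found. Each kind of RNA was sequenced in 3 bufotalin and 3 control libraries. The host animal, the dose, the duration of treatment and what the control tumours received are not stated in those labels, and the series' own design text speaks of cells where the sample labels speak of xenografts. Nothing in the labels says that replicates are separate animals, so the spread that the p-values measure is that of the libraries, and it may be technical.

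Cells meet low oxygen mainly through the hypoxia-inducible factors, dimers of an oxygen-labile alpha subunit, encoded by HIF1A or EPAS1, and the stable partner ARNT. When oxygen is present, prolyl hydroxylases mark the alpha subunit and the VHL ubiquitin ligase removes it; when oxygen is scarce, the dimer binds a short core motif near genes of glucose breakdown, acid export, matrix building and vessel control. The members sample these outputs. ADM encodes adrenomedullin, a secreted vasodilator peptide, ALDOC a fructose-bisphosphate aldolase of glycolysis, P4HA2 a catalytic subunit of collagen prolyl hydroxylase, and CA12 a membrane-bound carbonic anhydrase that faces the outside of the cell. miR-210 is the microRNA best known for its induction in low oxygen, and its host transcript is MIR210HG.

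The mature sequences of miR-210 are shown because both arms were counted separately. RefSeq (GRCh38.p14) places the hairpin on chr11:568089-568198, minus strand, and the capitals mark the seed, bases 2 to 8, through which a microRNA pairs with its targets.
hsa-miR-210-3p: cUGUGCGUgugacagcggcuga
hsa-miR-210-5p: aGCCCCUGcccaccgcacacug
In the hairpin below, the capitals mark the 5p arm, bases 28 to 49, followed by the 3p arm, bases 66 to 87.
MIR210 hairpin: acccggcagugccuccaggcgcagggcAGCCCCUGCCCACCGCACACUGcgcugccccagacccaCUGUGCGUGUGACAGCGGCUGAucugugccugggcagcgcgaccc
No other mature microRNA among 2370 in that human table had either seed at bases 2 to 8, so neither count stands for a human family. Whether reads from host cells of a xenograft are among these counts was not tested.

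The libraries had uneven contents that touch these results. Small RNA libraries held 1869893 to 3339624 counts in the bufotalin group and 2034422 to 4197636 counts in the control group. Bufotalin replicate 2 stood apart in microRNAs of blood cells: miR-451a, of red cells, took 116148 counts there, 3.48% of the library, against 282 to 1307 in the other libraries, and miR-223-3p, of myeloid cells, had 317 counts against 2 to 9. In total RNA, HBB, a globin gene, was listed at 13.4 FPKM in control replicate 3 and at 0.367 to 0.552 FPKM in the others. The depth of total RNA was unknown. Of 20 genes that mark Hep3B or hepatocytes, 3 were in the mRNA table, which the authors had already limited to genes they selected as different, so the label could be set against few genes, such as the keratin KRT8 (524 ± 107 FPKM in bufotalin and 362 ± 97.5 FPKM in control, SD, n = 3 each) and TF (at most 0.0402 FPKM). AFP and ALB were not analysed here.

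ADM was the member that rose, while the other 5 fell. As background, 93.2% of all tested mRNA genes were called (44.3% higher and 48.8% lower), as were 5.66% of miRNAs (2.10% higher and 3.56% lower), at an adjusted p under 0.05. The authors had limited the mRNA table to genes that differed between these very libraries, so a call there says little about a member by itself. ADM (ENSG00000148926, GRCh38 chr11:10305073-10307397) was measured at 56.7, 49.8 and 42.1 FPKM (fragments per kilobase of transcript and per 1000000 fragments) in bufotalin replicates 1, 2 and 3, and at 13.8, 13.8 and 11.1 FPKM in control replicates 1, 2 and 3. Every bufotalin library was above every control library, which says little by itself, since the groups did not overlap in 92.5% of the mRNA genes tested. The means were 49.5 ± 7.33 FPKM in bufotalin and 12.9 ± 1.55 FPKM in control (SD, n = 3 each). On log2(FPKM + 1), ADM was 1.86 higher with bufotalin (SE 0.14, 95% interval 1.55 to 2.18, adjusted p = 3.98e-06 by limma), which placed it 35th from the top among 4273 genes tested. In bulk tissue, fewer cells of a type and less RNA per cell cannot be told apart. ADM was the only measured member of its own system: its receptor CALCRL, the partners RAMP1, RAMP2 and RAMP3, and the processing enzyme PAM were not analysed here.

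ALDOC fell to a small part of its control level. ALDOC (ENSG00000109107, chr17:28573115-28576948), which splits fructose bisphosphate, had 1.17, 0.987 and 0.904 FPKM in bufotalin replicates 1, 2 and 3, against 16.1, 9.63 and 10.6 FPKM in control replicates 1, 2 and 3. The groups did not overlap, as in 92.5% of the genes tested, and control replicate 1 was the highest library. The bufotalin mean, 1.02 ± 0.139 FPKM, was 8.43% of the control mean, 12.1 ± 3.50 FPKM (SD, n = 3 each). The log2 fold change of -2.67 (SE 0.18, adjusted p = 2.30e-06 by limma) was the 17th lowest of the table. It was -2.46 without control replicate 1.

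P4HA2 fell by a smaller amount with little spread. P4HA2 (ENSG00000072682, listed at chr5:132191838-132295315) had 8.72, 7.21 and 7.48 FPKM in bufotalin replicates 1, 2 and 3, and 18.8, 17.0 and 18.0 FPKM in control replicates 1, 2 and 3. The lowest control library lay above the highest bufotalin library. The means were 7.80 ± 0.806 FPKM in bufotalin and 17.9 ± 0.910 FPKM in control (SD, n = 3 each), with a log2 fold change of -1.11 (SE 0.11, adjusted p = 1.73e-05 by limma). This was not extreme for the table, where 20.5% of the genes tested had a lower fold change. The listed locus spans PDLIM4 and parts of SLC22A4 and P4HA2-AS1 in RefSeq, and the sources used here do not say whether reads were counted by strand, so reads of these genes may not be separable.

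CA12 was low in control tumours and close to 0 in treated ones. CA12 (ENSG00000074410, chr15:63321378-63381846) had 0.125, 0.0553 and 0.106 FPKM in bufotalin replicates 1, 2 and 3, and 2.23, 0.964 and 1.46 FPKM in control replicates 1, 2 and 3. All bufotalin values were below all control values, and control replicate 1 was the highest library. The bufotalin mean, 0.0953 ± 0.0359 FPKM, was 6.15% of the control mean, 1.55 ± 0.636 FPKM (SD, n = 3 each), while the log2 fold change was -1.19 (SE 0.16, adjusted p = 0.000117 by limma). The added 1 FPKM compresses a gene at this level, and with 0.01 FPKM added in its place the fold change was -3.87. CA12 passed the minimum of 0.5 FPKM, set on the mean of all 6 libraries, only through the control group, so it had to differ to be tested. Its span overlaps 2 lncRNA loci in RefSeq.

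**Figure D1:**
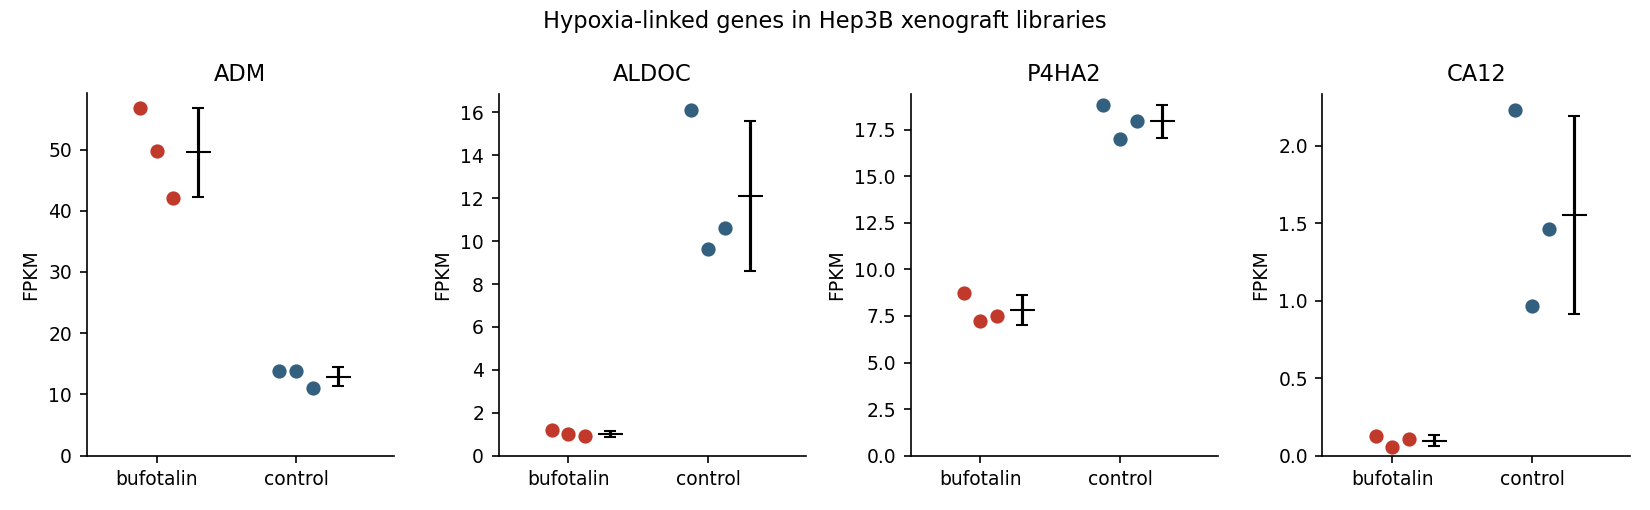
FPKM of ADM, ALDOC, P4HA2 and CA12 in each total RNA library, with bufotalin in red and control in blue; the dash and bar beside each group are the mean and SD of 3 libraries. ADM is higher in all bufotalin libraries (42.1 to 56.7 FPKM), and ALDOC, P4HA2 and CA12 are lower in all of them.

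The mRNA members changed places in their order of level, on the FPKM scale that accounts for length. In bufotalin tumours the order was ADM, P4HA2, ALDOC and CA12, and no neighbours overlapped between libraries. In control tumours P4HA2 was highest, followed by ADM and ALDOC, whose libraries overlapped (11.1 to 13.8 and 9.63 to 16.1 FPKM), and then CA12.

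**Figure D2:**
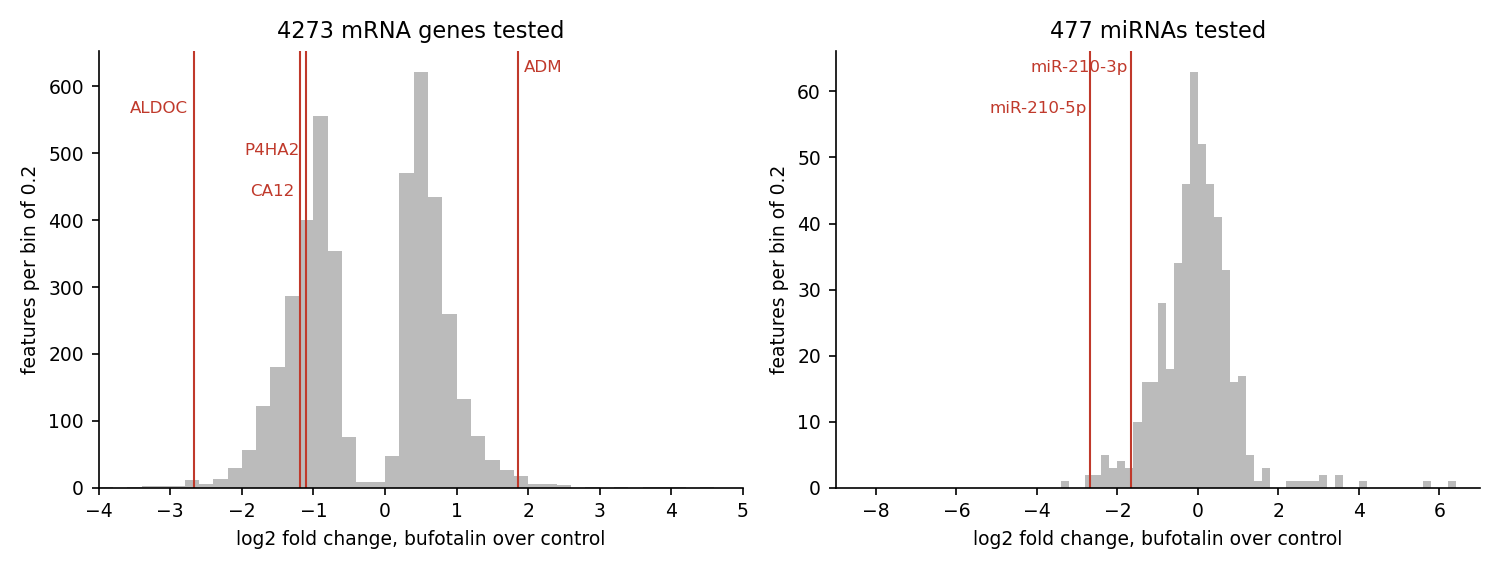
Histograms of the log2 fold change, bufotalin over control, of the 4273 mRNA genes (left) and 477 miRNAs (right) tested, in bins of 0.2, with red lines at the members. ADM and ALDOC lie in the tails of a selected table with a gap near 0, CA12 and P4HA2 lie near its lower peak, and both miR-210 arms lie in the lower tail.

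Both arms of miR-210 fell. miR-210-3p was counted 47, 88 and 63 times in bufotalin replicates 1, 2 and 3, and 515, 216 and 84 times in control replicates 1, 2 and 3. As counts per 1000000 counts of the library (CPM) this was 25.1, 26.4 and 22.1 CPM in bufotalin replicates 1, 2 and 3, against 123, 105 and 41.3 CPM in control replicates 1, 2 and 3. The bufotalin libraries were close together, and the control libraries were spread, with control replicate 3 nearest to the treated ones. The Poisson intervals, which cover counting error only, reached up to 33.4 CPM in bufotalin replicate 1 and down to 32.9 CPM in control replicate 3.

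The means of miR-210-3p were 24.5 ± 2.21 CPM in bufotalin and 89.7 ± 42.8 CPM in control (SD, n = 3 each). With edgeR, miR-210-3p had a log2 fold change of -1.66 (SE 0.37, 95% interval -2.48 to -0.84, adjusted p = 0.0242), 21st lowest of 477 miRNAs. Its call ended without bufotalin replicate 1, 2 or 3 (adjusted p 0.125, 0.0942 and 0.0763 by edgeR) and without control replicate 1 (0.0539, log2 fold change -1.32). It also ended with the replicate number added to the model as a block (adjusted p = 0.0971 by edgeR, log2 fold change -1.58). The direction held in each case. By count miR-210-3p ranked 271st to 279th in bufotalin libraries, where 921 to 1040 features had counts. In control libraries it ranked 181st to 236th, where 915 to 1073 features had counts.

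miR-210-5p, the minor arm, was counted 1, 5 and 3 times in bufotalin replicates 1, 2 and 3, and 37, 12 and 18 times in control replicates 1, 2 and 3. This was 0.535, 1.5 and 1.05 CPM in bufotalin replicates 1, 2 and 3, and 8.81, 5.84 and 8.85 CPM in control replicates 1, 2 and 3. All bufotalin libraries were below all control libraries, and the groups did not overlap in 27.3% of the miRNAs tested. In bufotalin libraries 3 counts were worth 0.898 to 1.60 CPM, so these values are near the limit of detection. The means were 1.03 ± 0.482 CPM in bufotalin and 7.84 ± 1.73 CPM in control (SD, n = 3 each). The log2 fold change was -2.68 (SE 0.59, 95% interval -3.98 to -1.38, adjusted p = 0.0224 by edgeR), the 3rd lowest tested. The call ended without bufotalin replicate 1, 2 or 3 (adjusted p 0.109, 0.0756 and 0.0748 by edgeR) and without control replicate 1 (0.0588). With the replicate block it ended as well (adjusted p = 0.0971 by edgeR, log2 fold change -2.62). miR-210-5p passed the filter on low counts, about 4.07 CPM in at least 3 libraries, only through the control group.

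Of 477 miRNAs tested, 10 were called higher and 17 lower, and both members were among the 17. With library totals in place of TMM scaling the split was 5 higher and 16 lower. Without bufotalin replicates 1, 2 and 3 the calls numbered 13, 8 and 6, and without control replicate 1 they numbered 40.

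The 5p arm is the less abundant product of the hairpin. Its share of miR-210 counts was 2.08%, 5.38% and 4.55% in bufotalin replicates 1, 2 and 3 and 6.70%, 5.26% and 17.6% in control replicates 1, 2 and 3. Control replicate 3 stood above the rest (Wilson 95% interval 11.5% to 26.2%), and the groups overlapped. The group means differed by -5.87 percentage points (exact permutation test, two-sided p = 0.20, where 0.10 is the smallest p that 3 against 3 allows), so this test could not have passed with 3 libraries a group. Bufotalin replicate 1 rested on 1 count of 5p (0.369% to 10.9%).

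The host transcript was lower in the bufotalin libraries and did not pass the test. MIR210HG-203 (chr11:567144-568457), whose span holds the hairpin shown above, was listed at 0 FPKM in all 3 bufotalin libraries and at 0.776, 0.484 and 0.0123 FPKM in control replicates 1, 2 and 3. Control replicate 3 was almost at the bufotalin level, and it was also the control library with the lowest miR-210-3p, although the labels do not say that small and total RNA of 1 number come from 1 tumour. MIR210HG-203 had a log2 fold change of -1.95 (adjusted p = 0.0724 by limma), where the median of all lncRNA transcripts tested was -1.74. Of those transcripts 73.3% were called, 29.2% higher and 44.1% lower, and the groups did not overlap in 79.6%. MIR210HG-203 met the minimum of 0.1 FPKM only through the control group, so it had to be lower to be tested. It passed without control replicate 3 (adjusted p = 0.000723 by limma), the control library nearest to the bufotalin level. With 0.01 FPKM added in place of 0.1 it passed too (adjusted p = 0.0359 by limma). Without bufotalin replicate 1, 2 or 3 or control replicate 2 it did not pass (adjusted p 0.158, 0.157, 0.158 and 0.187 by limma).

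**Figure D3:**
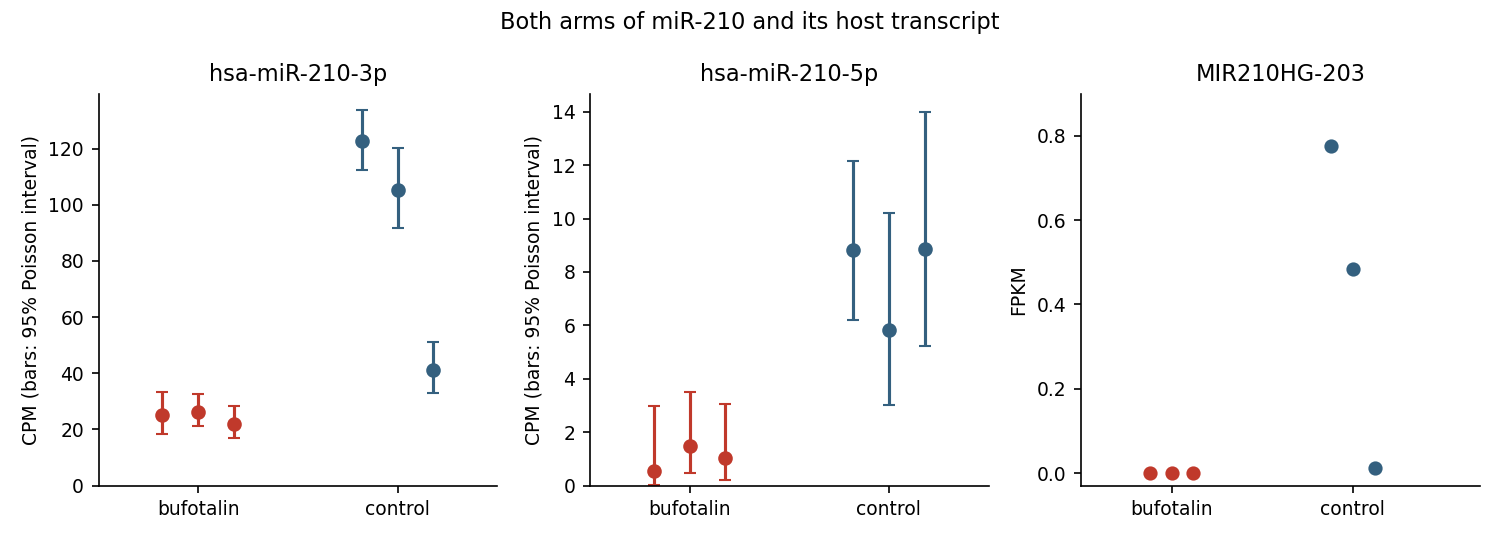
CPM of hsa-miR-210-3p and hsa-miR-210-5p with 95% Poisson intervals, and FPKM of the host transcript MIR210HG-203, in each bufotalin (red) and control (blue) library. Both arms are lower in every bufotalin library, and the host transcript is listed at 0 there and at 0.0123 to 0.776 FPKM in control.

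No other microRNA of the hypoxia list passed with edgeR as fitted here, though miR-27a-3p did in 4 alternatives. Of 25 listed, 23 were tested, 2 fell and 21 were not called, where 5.66% of all tested miRNAs were called. The median log2 fold change was 0.19 over the 23 against -0.04 over all tested. The nearest to the threshold was miR-27a-3p, of the miR-23/27/24 cluster, at 22434 ± 6728 CPM in bufotalin and 9758 ± 4410 CPM in control (SD, n = 3 each; log2 fold change 1.33, adjusted p = 0.0510 by edgeR). It passed with DESeq2 (adjusted p = 0.00801), and in edgeR with DESeq2's size factors (0.0420), with no count filter (0.0163) and without control replicate 1 (0.00721). miR-26b-5p passed with edgeR when control replicate 1 was left out (adjusted p = 0.0102). miR-30d-5p had 0.71 without passing. miR-21-5p, the most abundant of the list, had -0.17 (122670 ± 8234 CPM in bufotalin and 155699 ± 18769 CPM in control), and the list's uncalled members ranged from -0.27 to 1.33.

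Genes of the oxygen-sensing machinery mostly rose. Of 17 listed, 7 were tested, of which 6 rose and 1 fell (median log2 fold change 0.54, against 0.13 over all tested genes). The shares of all tested genes called were 44.3% higher and 48.8% lower. EPAS1, an alpha subunit of the dimer, had 42.0, 50.2 and 50.1 FPKM in bufotalin replicates 1, 2 and 3, against 20.0, 18.8 and 18.6 FPKM in control replicates 1, 2 and 3 (log2 fold change 1.26, adjusted p = 9.21e-06 by limma). Its partner ARNT fell (-0.70, 11.6 ± 1.02 FPKM in bufotalin and 19.5 ± 0.685 FPKM in control). CITED2, which competes with the alpha subunit for the coactivators CREBBP and EP300, rose by 1.60 (30.6 ± 0.795 FPKM in bufotalin and 9.49 ± 1.32 FPKM in control). CITED4, a relative, rose as well (73.9 ± 12.7 FPKM in bufotalin and 31.7 ± 5.95 FPKM in control). The call of EP300 (0.35) ended without bufotalin replicate 2 or 3 or control replicate 1 (adjusted p 0.0853, 0.0966 and 0.0892 by limma). That of the ubiquitin ligase SIAH2 (0.28) ended under quantile normalization and without bufotalin replicate 1 or 2 or control replicate 1 or 2. HIF1A, VHL and the EGLN prolyl hydroxylases were not analysed here.

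Glycolysis genes went both ways. Of 32 listed, 9 were tested, ALDOC included. Of these 3 rose, 5 fell and 1 was not called, where 44.3% of all tested genes were called higher and 48.8% lower. The list's median log2 fold change was -1.38, against 0.13 over all tested genes. Beside ALDOC, the muscle-type enolase ENO3 had 40.6, 28.4 and 30.1 FPKM in bufotalin replicates 1, 2 and 3, against 135, 112 and 118 FPKM in control replicates 1, 2 and 3 (log2 fold change -1.87, adjusted p = 5.12e-06 by limma). The phosphofructokinase subunits PFKL (-1.61, 21.9 ± 1.06 FPKM in bufotalin and 69.3 ± 9.19 FPKM in control) and PFKM (-1.38, 22.4 ± 1.84 FPKM in bufotalin and 59.8 ± 7.48 FPKM in control) fell. PDK3, a kinase that restrains pyruvate dehydrogenase, fell by 1.44 on the log2 scale. At the ends of the pathway the glucose transporter SLC2A1 rose (1.32, 36.9 ± 10.3 FPKM in bufotalin and 13.8 ± 1.60 FPKM in control), as did the lactate transporter SLC16A1 (1.25). Within the pathway the neuronal-type enolase ENO2 rose (0.82), unlike ENO3. The lactate exporter SLC16A3 had 0.38 without passing; it passed without control replicate 3 and after scaling to equal medians (0.61 and 0.63, adjusted p 0.00256 and 0.00972 by limma). The aldolase ALDOA was not analysed here.

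Most of the other collagen-modifying enzymes tested were lower too. Of 18 listed, 7 were tested, P4HA2 included. Of these 6 fell and 1 rose, where 44.3% of all tested genes were called higher and 48.8% lower. The list's median log2 fold change, -1.11, is the value of P4HA2 itself, against 0.13 over all tested genes. P4HA3, the other measured catalytic subunit of the family, had 0.574, 0.423 and 0.472 FPKM in bufotalin replicates 1, 2 and 3 and 5.67, 4.72 and 5.16 FPKM in control replicates 1, 2 and 3 (log2 fold change -2.05, SE 0.11, adjusted p = 1.17e-06 by limma). It averaged 0.489 FPKM in bufotalin and passed the minimum of 0.5 FPKM only through control, so it had to differ to be tested. The lysyl hydroxylase PLOD1 fell by 1.39 on the log2 scale, CRTAP, a partner of prolyl hydroxylation, by 1.00, and the lysyl oxidase homologue LOXL2 by 1.00. PLOD2, a lysyl hydroxylase also known as a hypoxia target, rose (0.49, 26.6 ± 2.56 FPKM in bufotalin and 18.6 ± 1.65 FPKM in control). Fibroblast marker genes moved the same way. Of 17 listed, 8 were in the table and all 7 tested fell, where 48.8% of all tested genes were called lower. Their summed level was 23.9 to 29.8 FPKM in bufotalin and 84.2 to 88.7 FPKM in control, almost all of it from collagen genes, FBN1 and TAGLN. Their part in the fall of P4HA2 and its relatives was not tested. COL6A2 did not exceed 0.173 FPKM in any library. Under quantile normalization PDGFRB had 0.09 in place of -0.56 and ACTA2 was not called.

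CA9 and CA11 fell with CA12. Of 21 genes on the list of acid handling, 7 were tested. Of these 3 fell, 2 rose and 2 were not called (median log2 fold change 0.24, against 0.13 over all tested genes). Among all tested genes 48.8% were called lower and 44.3% higher. CA9, the other hypoxia-induced enzyme on the cell surface (chr9:35673918-35681159), was listed at 0.0206, 0 and 0.0193 FPKM in bufotalin replicates 1, 2 and 3 and at 1.52, 0.650 and 1.48 FPKM in control replicates 1, 2 and 3. In both genes control replicate 2 was the lowest control library, and the groups did not overlap. The log2 fold change of CA9 was -1.10 (adjusted p = 0.000139 by limma), and with 0.01 FPKM added in place of 1 it was -5.78. Like CA12, it reached the minimum of 0.5 FPKM through the control group alone, and it was under that minimum when control replicate 1 or 3 was left out. CA11, a related protein without enzyme activity, fell (-1.09), the mitochondrial CA5B had 0.24 without passing, and the anion exchanger SLC4A2 rose (0.71). CA11 averaged 0.346 FPKM in bufotalin, so it too reached the minimum only through the control group and had to be lower to be tested. CA5B passed under quantile normalization (0.87) and after scaling to equal medians (0.43).

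The other targets of the hypoxia-inducible factors that could be tested mostly rose. Of 56 listed, 17 were in the mRNA table and 13 were tested, of which 10 rose and 3 fell. Their median log2 fold change was 0.82 against 0.13 over all tested genes, of which 44.3% were called higher and 48.8% lower. GPRC5A, an orphan receptor, had 103 ± 14.5 FPKM in bufotalin and 29.2 ± 3.56 FPKM in control (1.79). HMOX1, the haem oxygenase, rose by 1.14, the chemokine receptor CXCR4 by 1.13 and the binding protein IGFBP1 by 1.17. TFRC, the transferrin receptor, rose by 2.54. The angiogenic factor VEGFA rose by 0.37 (30.5 ± 3.15 FPKM in bufotalin and 23.4 ± 2.19 FPKM in control), and that call ended under quantile normalization and without bufotalin replicate 3 or control replicate 1. MUC1, a membrane mucin (-1.41), ZNF395 (-0.89) and the stress-response gene DDIT4 (-0.75) fell. PPFIA4, under the minimum for testing, was listed at no more than 0.00971 FPKM in bufotalin and at 0.105 to 0.345 FPKM in control libraries.

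**Figure D4:**
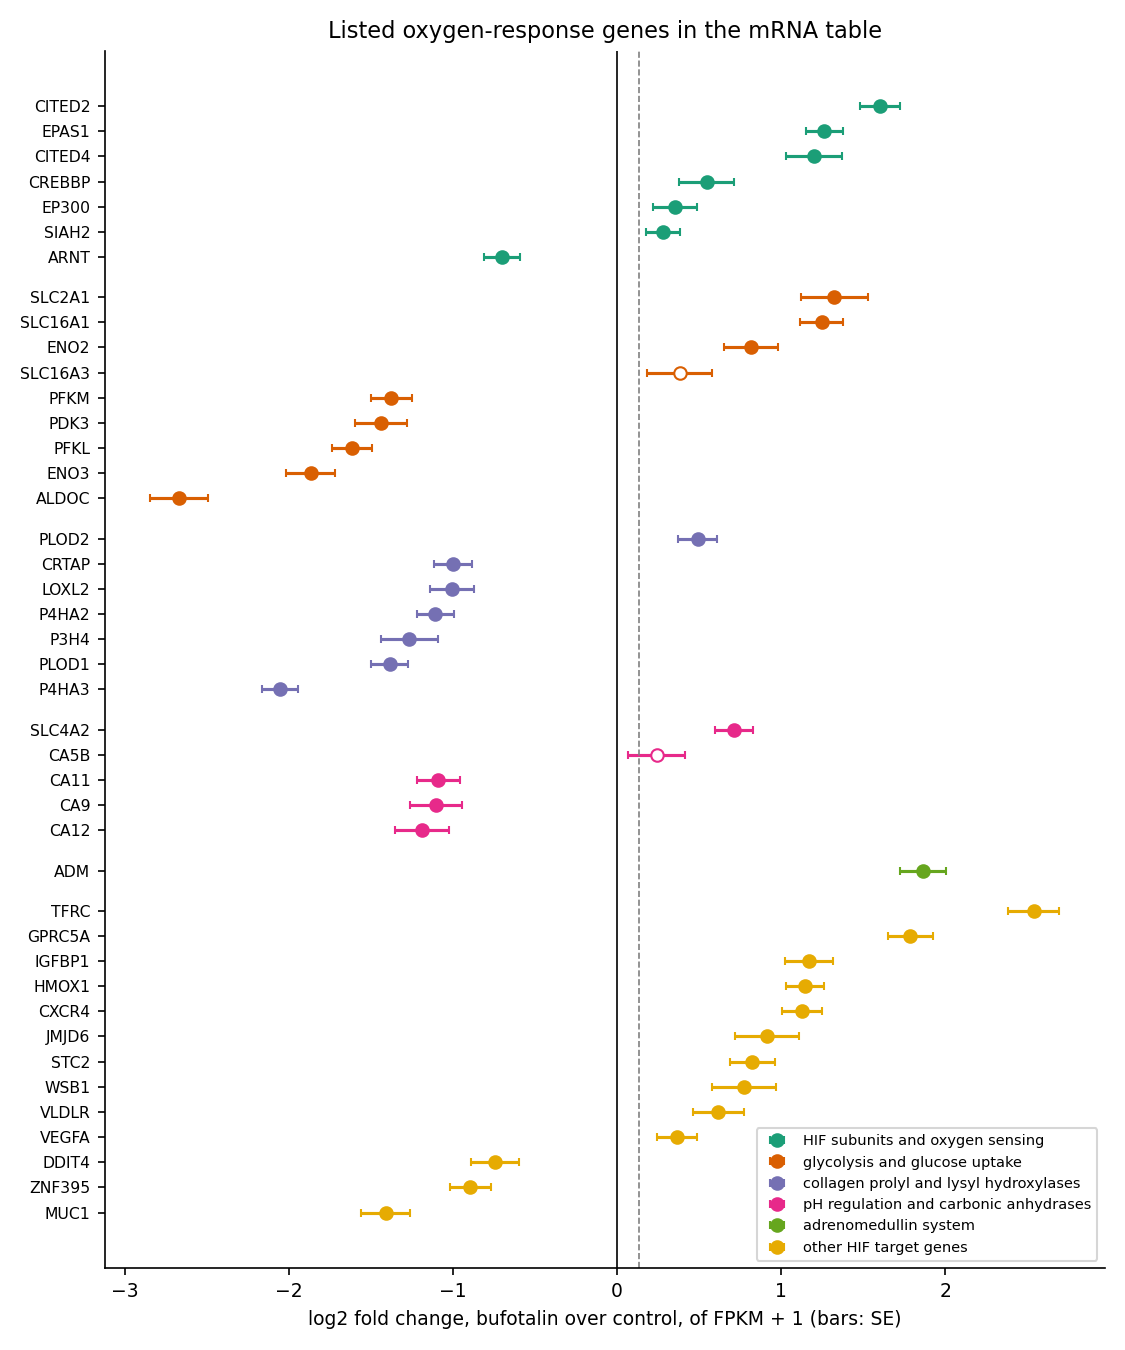
Log2 fold change (bufotalin over control, on FPKM + 1, with SE) of the listed oxygen-response genes tested, coloured by list; filled points passed limma's test, open points did not, and the dashed line is the median of all tested genes (0.13). SLC16A1 and SLC16A3, on 2 lists, are drawn once; ADM and most other targets lie to the right, while ALDOC, P4HA2, P4HA3, CA9 and CA12 lie to the left.

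Genes reported as targets of miR-210-3p went both ways. Of 29 listed, 11 were tested, 7 rose, 3 fell and 1 was not called, with a median log2 fold change of 0.38 against 0.13 over all tested genes. Among the latter 44.3% were called higher and 48.8% lower. TFRC, which is also on the list of factor targets, had the largest rise. The transcription factor E2F3 rose (0.60, 18.4 ± 0.934 FPKM in bufotalin and 11.9 ± 1.38 FPKM in control), as did the growth factor BDNF (0.59). The receptor-like FGFRL1 (-0.84) and the pentraxin NPTX1 (-1.48) fell. GPD1L had 7.64, 6.67 and 1.95 FPKM in bufotalin replicates 1, 2 and 3 and 2.49, 2.32 and 2.56 FPKM in control replicates 1, 2 and 3. Bufotalin replicate 3 was below the control libraries, so the groups overlapped and the gene did not pass (0.75, adjusted p = 0.106 by limma); without that library it passed (1.24). The calls of COX10, HOXA9 and SMCHD1 (0.45, 0.35 and 0.31) each ended when 1 of several libraries was left out. ISCU, the target most often tied to miR-210, was not analysed here.

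Promoter windows of RefSeq (GRCh38.p14, 250 bases before to 50 after the start) were searched for the core to which the factors bind, as ACGTG and GCGTG on both strands. They are shown for ADM, which rose, and for ALDOC, CA12 and MIR210HG, which were lower, with the motif in capitals.
ADM, chr11:10304823-10305122, plus strand: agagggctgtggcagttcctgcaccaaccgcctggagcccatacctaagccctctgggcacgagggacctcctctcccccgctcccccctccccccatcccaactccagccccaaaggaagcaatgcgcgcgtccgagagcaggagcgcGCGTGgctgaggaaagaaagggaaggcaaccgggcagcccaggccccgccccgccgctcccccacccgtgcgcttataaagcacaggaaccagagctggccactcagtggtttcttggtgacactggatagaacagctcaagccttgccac
ALDOC, chr17:28576846-28577145, minus strand: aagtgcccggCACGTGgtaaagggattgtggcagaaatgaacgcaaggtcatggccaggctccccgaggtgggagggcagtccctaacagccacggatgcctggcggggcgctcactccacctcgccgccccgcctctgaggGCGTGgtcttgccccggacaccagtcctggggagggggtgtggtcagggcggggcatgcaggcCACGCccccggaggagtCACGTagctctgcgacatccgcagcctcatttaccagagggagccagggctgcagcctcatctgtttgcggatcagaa
CA12, chr15:63381797-63382096, minus strand: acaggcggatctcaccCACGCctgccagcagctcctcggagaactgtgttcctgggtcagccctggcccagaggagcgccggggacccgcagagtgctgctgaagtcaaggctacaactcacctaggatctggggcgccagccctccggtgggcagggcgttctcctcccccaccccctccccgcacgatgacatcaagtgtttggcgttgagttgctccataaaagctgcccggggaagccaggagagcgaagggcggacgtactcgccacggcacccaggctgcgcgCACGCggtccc
MIR210HG, chr11:568408-568707, minus strand: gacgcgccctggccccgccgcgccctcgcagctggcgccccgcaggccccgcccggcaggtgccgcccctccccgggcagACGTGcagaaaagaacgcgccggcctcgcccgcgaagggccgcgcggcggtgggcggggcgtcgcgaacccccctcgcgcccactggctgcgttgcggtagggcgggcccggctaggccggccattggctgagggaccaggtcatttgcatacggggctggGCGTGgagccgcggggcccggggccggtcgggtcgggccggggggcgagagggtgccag
ALDOC held 5 matches, where the 2 at the distal end are the 2 strands of 1 palindrome. CA12 and MIR210HG held 2 each, and ADM 1, located 101 bases before the start. The CA9 window held 1, located 18 bases before the start, and the P4HA2 window held none of these letters, though it lies inside the longer listed locus of that gene. Of 27305 windows, 48.4% held at least 1 match (21.6% ACGTG and 36.3% GCGTG), so a match is common and is a description only.

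The genes with the most similar profile were taken by Euclidean distance between log2(FPKM + 1) values over the 6 libraries, each centred on its own mean, among genes that averaged 1 FPKM or more. For ADM they were ANKRD1, a nuclear ankyrin repeat protein (distance 0.30), PTGES, a prostaglandin E synthase (0.31), and RHAG, a membrane glycoprotein (0.33). ANKRD1 and RHAG averaged 0.193 and 0.0170 FPKM in control, so they reached 1 FPKM only through the bufotalin group. PTGES averaged 251 FPKM in bufotalin and 66.8 FPKM in control, so it was the nearest gene at a high level. For ALDOC they were BTN3A3 (0.41), ADSSL1, a purine synthesis enzyme (0.42), and PCK1, the cytosolic enzyme of glucose synthesis (0.45). BTN3A3 and PCK1 averaged 0.474 and 0.270 FPKM in bufotalin and reached 1 FPKM only through the control group. For P4HA2 they were EVI5L (0.08), CUTC (0.08) and GM2A (0.11), and for CA12 MICAL2 (0.09), PACS1 (0.17) and MMAB (0.19). Among miRNAs, by log2 CPM, miR-425-3p was nearest to miR-210-3p (0.89) and miR-1908-5p to miR-210-5p (1.09). These distances mostly measure the size of the difference between groups.

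Each mRNA member kept its direction and its call in all 13 alternatives of processing, and both miR-210 arms kept their direction in 11. Scaling libraries to equal medians moved the median log2 fold change of all tested genes to 0.39, against 0.13. Relative to the median of the table in each setting, ADM ranged from 1.58 to 2.24, ALDOC from -3.66 to -2.28, P4HA2 from -1.34 to -0.81 and CA12 from -4.01 to -0.76. With library totals in place of TMM the median of all miRNAs was -0.20, against -0.04, and relative to it miR-210-3p ranged from -1.96 to -1.28 and miR-210-5p from -2.96 to -2.43 over the settings.

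**Figure D5:**
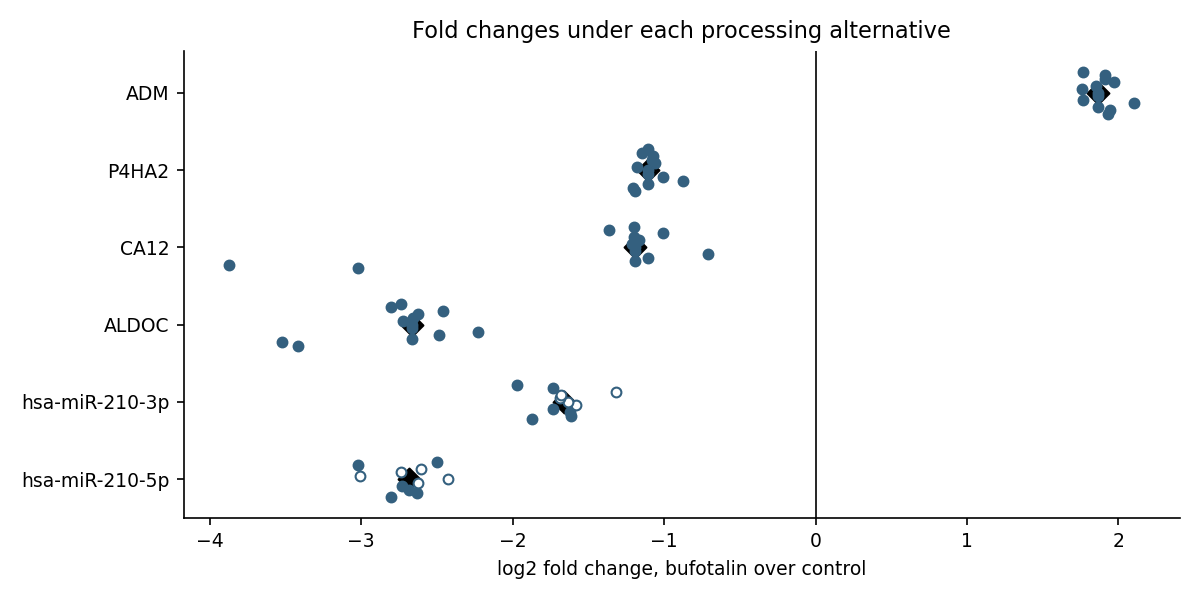
Log2 fold change (bufotalin over control) of the 6 members as reported (black diamonds) and under each alternative (circles), filled where the adjusted p was under 0.05. No member crosses 0; open circles, at which the call ended, occur for both miR-210 arms, and the wide spread of CA12 (-3.87 to -0.71) comes from the pseudocount and quantile normalization.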

How the data were processed

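Per the labels' protocols, TRIzol was used for extraction and a NEBNext Ultra kit for the libraries. The submitters' processing notes name CASAVA 1.8, fastp, HISAT2 2.0.5, featureCounts 1.5.0-p3, DESeq2 1.20.0 and GRCh38, without saying which tool made which values. The authors deposited read counts per mature miRNA, and beside them TPM values that equal the count per 1000000 counts of the column (CPM here). They deposited FPKM values per gene and per lncRNA transcript, limited to features chosen by the authors as differing between the groups, per the labels.

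miRNA counts were tested with edgeR 4.0.16 (TMM, filterByExpr, robust quasi-likelihood F test, SE as the fold change over the root of F). FPKM was tested with limma 3.58.1 (trended, robust): log2(FPKM + 1) where the gene averaged 0.5 FPKM or more, and log2(FPKM + 0.1) where the transcript averaged 0.1 FPKM or more. Fold changes on this scale understate the change of low genes. Tests were two-sided over whole tables, adjusted by Benjamini-Hochberg, with a call under 0.05, and were tested on simulated data. DESeq2 1.42.0, R 4.3.3, Python 3.11.15, scipy 1.17.1, pandas 2.3.3, numpy 2.4.6 and matplotlib 3.10.9 were also used. Members and gene lists were chosen with earlier results of these data known. Named genes were the members, up to 4 genes per list by smallest p, the 3 nearest profiles of each mRNA member and close relatives of members; the others named on a list were added after their values were seen. Intervals and floors cover counting error only: without molecular identifiers, PCR copies are counted as reads. Total RNA depth is unknown. A few listed genes are not reported here.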

Additional observations from a re-analysis of the deposited data

How the results depend on the processing

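The numbers of replicates were shared between groups. For mRNA, bufotalin and control libraries of 1 number did not deviate together (correlations of -0.05 to 0.03). For miRNA the correlations were 0.13, 0.03 and 0.36 for numbers 1, 2 and 3, against -0.32 to 0.22 between unlike numbers. Not all passed 0.1, so the libraries were not treated as pairs. The labels do not say whether small RNA libraries of 1 number belong together. With the replicate block, miR-210-3p had a log2 fold change of -1.58 and miR-210-5p of -2.62 (adjusted p 0.0971 for both by edgeR), 3 miRNAs were called in place of 27, and the mRNA members kept their calls. The cause was not tested.

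With each library left out in turn, log2 fold changes ranged from 1.76 to 1.97 for ADM, -2.80 to -2.46 for ALDOC, -1.18 to -1.06 for P4HA2, -1.36 to -1.01 for CA12, -1.97 to -1.32 for miR-210-3p and -3.02 to -2.43 for miR-210-5p. The count of miRNAs called ranged from 6 to 40 (13, 8 and 6 without bufotalin replicates 1, 2 and 3), that of mRNA genes from 3728 to 3876 and that of lncRNA transcripts from 322 to 340, against 3981 and 341. DESeq2 called 62 miRNAs, and both arms of miR-210 passed with it (adjusted p 0.00172 for 3p and 0.00591 for 5p). The difference in the 5p share ranged from -8.17 to -1.98 percentage points. MIR210HG-203 could not be tested without control replicate 1, where it fell under the minimum. Depth limits miR-210-5p, with 9 counts over 3 bufotalin libraries and 67 over 3 control libraries.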

Other observations

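Noncoding transcripts of 2 hypoxia-linked genes, chosen after their values were seen, were listed in the lncRNA table. KDM3A-213, from the gene of a histone demethylase that the hypoxia-inducible factors induce (chr2:86456433-86466833), had 0.926, 0.341 and 1.35 FPKM in bufotalin replicates 1, 2 and 3 and 0.0704, 0.0160 and 0.0685 FPKM in control replicates 1, 2 and 3 (adjusted p = 0.00510 by limma). PFKFB4-209, from the gene of a glycolytic regulator (chr3:48549864-48562015), had 0.384, 0.286 and 0.371 FPKM in bufotalin replicates 1, 2 and 3 and was listed at 0 in all 3 control libraries (adjusted p = 0.000379 by limma). Both passed the minimum of 0.1 FPKM only through the bufotalin group, so they had to differ to be tested, and the groups did not overlap in 79.6% of the lncRNA transcripts tested. Of the other noncoding transcripts of listed genes, ACVR1B-207 and P4HB-206 were listed at 0 in all control libraries (means of 0.683 and 0.457 FPKM in bufotalin), and P4HB-210 was lower in bufotalin without passing (0.0644 ± 0.0235 FPKM in bufotalin and 5.88 ± 9.74 FPKM in control, SD, n = 3 each). Among listed hypoxia lncRNAs, the 1 tested transcript of MALAT1 had 1.01 ± 0.172 FPKM in bufotalin and 198 ± 77.6 FPKM in control (SD, n = 3 each). LINC00511-234 was listed at 0.111 to 0.160 FPKM in bufotalin libraries and at 0 in control libraries.

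Beside the fibroblast markers, the endothelial EGFL7 fell (-1.84) and CDH5 rose (0.86), where CDH5 passed the minimum of 0.5 FPKM only through the bufotalin group, CSF1R, of macrophages, rose (0.46), and ITGAM and ADGRE1 were listed at 0 in all bufotalin libraries and at no more than 0.0816 FPKM in control libraries, while CD14 was listed at 0.522 to 0.728 FPKM in bufotalin libraries and at no more than 0.0758 FPKM in control libraries. miR-122-5p, the liver microRNA, had -0.98 without passing, and 0.51 without control replicate 3. Among microRNA markers of cell types, miR-192-5p, of epithelium (0.84), and miR-1-3p, of muscle (1.68), were not called by edgeR and passed with DESeq2 (adjusted p 0.0193 and 0.0279). miR-1-3p also passed in edgeR with no count filter (0.00220), and it had 418 CPM in bufotalin replicate 2, against 153 and 56.0 CPM in bufotalin replicates 1 and 3. Unlike the fibroblast marker genes, the stromal miR-143-3p was higher in bufotalin, at 663 ± 18.9 CPM against 350 ± 211 CPM in control (SD). Its log2 fold change of 1.19 did not pass (adjusted p = 0.101 by edgeR). The stromal miR-145-5p had 0.98 without passing (adjusted p = 0.294 by edgeR).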
